A study of Arabidopsis thaliana with 72 samples.

Results

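The 12 libraries compared here come from Col-0 Arabidopsis seedlings kept at low phosphate (low Pi) or at high phosphate (high Pi), in both cases in the presence of flg22. They were chosen by their labels alone, as the libraries of genotype Col-0 with flg22 at either phosphate level, and are 12 of the 72 libraries of the series, 6 at each level. Col-0 is the wild-type accession. Seedlings germinated for 7 days on Johnson agar medium with 1 mM phosphate and then were kept for 12 days at 1 mM phosphate for high Pi or at about 5 µM for low Pi, with 1% sucrose throughout, 9 h of light and 15 h of dark a day, and 1 µM flg22 in both media after the transfer. Low Pi is what the agar itself carries, so these plants were short of phosphate and not wholly without it. RNA came from whole seedlings. Experiments A and B, so named in the titles, gave 3 libraries each to either group. Whether the 3 came from separately grown cultures is not in the labels, and p-values therefore measure only the spread among these samples, which may in part be technical. Set beside them were 12 Col-0 libraries without treatment, 12 libraries labelled phr1 phl1 with flg22 and 12 Col-0 libraries with 10 µM methyl jasmonate (MeJA), each with 6 at low and 6 at high Pi on the same schedule.

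When phosphate runs short, Arabidopsis raises the transcription of genes that take up phosphate, release it from organic compounds and replace phospholipids in membranes. MYB-type factors of the PHR family, PHR1 and PHL1 among them, drive much of this program by binding a short promoter element called P1BS, and SPX proteins hold them back when phosphate is ample. flg22 is a fragment of bacterial flagellin that the receptor kinase FLS2 recognises, which starts pattern-triggered immunity.

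Total counts ran from 2494827 to 5475710 per library, and replicate libraries differed by more than sampling noise in all 30 pairs (chi-square per degree of freedom at least 2.87). On the first principal component of the 1000 most variable genes, which held 43.7% of the variance, the low Pi libraries of experiment A lay at 26.1 to 38.1 and its high Pi libraries at -28.5 to -15.4. In experiment B the low Pi libraries (-9.74 to -1.23) and the high Pi libraries (-14.0 to -4.67) overlapped. The low Pi library B1 had the lowest level of the 6 low Pi libraries for 17 of the 23 phosphate genes that rose. The 33 photosynthesis genes that mark green tissue summed to 91020 to 146100 CPM (counts scaled to library size) at high Pi and 130200 to 191800 at low Pi, and 16 genes of the root endodermis and tip, 13 of them tested, to 159.2 to 278.5 and 175.3 to 239. No gene of either list was at 0 in all 12 libraries, and both green tissue and roots were thus present. In edgeR no root gene of that list passed over both experiments (median 0.03, 0 at an unadjusted p under 0.05 and 0 by DESeq2). Within A 3 of the 13 rose and 1 fell, beside 11.6% and 12.9% of all tested genes. In whole seedlings, fewer cells of a type and less RNA per cell cannot be told apart, and the part of tissue make-up in the results was not tested.

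Of 18583 genes tested, 1428 rose at low Pi (7.68%) and 1308 fell (7.04%) at an adjusted p under 0.05 in edgeR's quasi-likelihood test, 255 and 156 of them by at least 2-fold. Phosphate starvation genes and genes known from darkness and senescence were among the largest increases, and genes of iron uptake among the largest decreases. The response was far from equal in the 2 experiments. Within experiment A 2159 genes rose (11.6%) and 2398 fell (12.9%), and within experiment B 296 rose (1.59%) and 139 fell (0.748%). The 177 genes that rose in both are 8.2% of those risen in A and 59.8% of those risen in B. The 80 that fell in both are 3.34% of those fallen in A and 57.6% of those fallen in B. The response itself differed between the experiments for 1353 genes (7.28%), of which 1206 changed more in A and 147 more in B. For 865 of the 1353 the fitted directions in A and B were opposite. Over all genes, which are not independent replicates, the log2 changes in A and B had a Pearson r of 0.196 and a Spearman rho of 0.279. Values within each experiment are therefore given as well for many genes and lists. A gene called in 1 experiment and not in the other is not shown to differ unless the test of the difference passed.

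**Figure D1:**
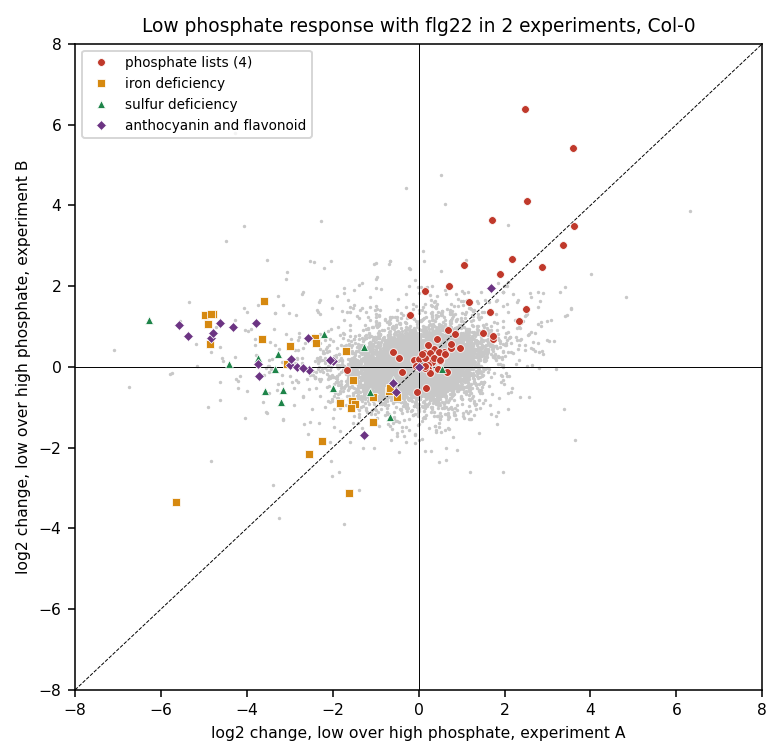
Each grey point is 1 of 18583 tested genes, placed by its log2 change from high to low phosphate with flg22 in experiment A (horizontal axis) and in experiment B (vertical axis), with the phosphate, iron, sulfur and flavonoid lists in colour and the line of equal change dashed. The phosphate genes with the largest changes lie at the upper right, changed in both experiments, whereas most sulfur and flavonoid genes reach far to the left. The medians of these lists were -3.16 and -2.91 in A against -0.07 and 0.16 in B. In B single flavonoid genes lay well above or well below 0.

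The transcript levels of the regulators are given first. PHR1 (AT4G28610) and PHL1 (AT5G29000), the factors themselves, did not pass the test, with log2 changes of 0.26 ± 0.16 and -0.18 ± 0.24 (± SE, as for all such values below; adjusted p = 0.29 and 0.67). PHR1 stood at 49.8, 56.4 and 63.4 CPM at high Pi against 59.9, 68.6 and 74 CPM at low Pi, where the values are the lowest, the median and the highest of 6 libraries, as in all such triples. The groups overlapped. Of 13 genes of phosphate signalling 5 rose and none fell, with a median log2 change of 0.31, against 0.0033 over all genes tested.

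SPX1 and SPX3, inhibitors of PHR factors that are themselves transcribed under starvation, rose. SPX1 (AT5G20150) was at 5.92, 9.18 and 16.1 CPM at high Pi against 20.5, 52.5 and 72.1 CPM at low Pi and rose by 2.37 ± 0.35 (adjusted p = 9.4e-06), with 2.17 in experiment A and 2.67 in B. SPX3 (AT2G45130) was scarce, at 0, 0.24 and 0.431 CPM at high Pi against 0.878, 5.27 and 7.14 CPM at low Pi, and rose by 4.35 ± 0.68 (adjusted p = 2.2e-05), with 3.59 in A and 5.43 in B. For both genes every low Pi library lay above every high Pi library, with low Pi B1 the lowest of the low Pi libraries. SPX2 (AT2G26660) and SPX4 (AT5G15330), further inhibitors of the family, had 0.39 ± 0.15 and 0.22 ± 0.17 (adjusted p = 0.071 and 0.4), SPX2 passing without the low Pi library B1 (0.48, adjusted p = 0.023). UNE16 (AT4G13640), annotated as a homeodomain-like protein, rose by 0.46 ± 0.15 (adjusted p = 0.033), a call that was lost without any 1 of 6 libraries (high Pi A1, B1 and B3 or low Pi A1, A2 and A3), at 0.38 to 0.46.

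IPS1 and AT4 are non-coding RNAs that pair with the microRNA miR399 around a bulge and so sequester it. IPS1 (AT3G09922) was at 0.169, 0.736 and 2.44 CPM at high Pi against 4.68, 11 and 27.3 CPM at low Pi, and rose by 3.53 ± 0.61 (adjusted p = 1.0e-04), with 3.61 in A and 3.48 in B. AT4 (AT5G03545) was at 9.46, 14 and 24.8 CPM and 65.4, 112 and 317 CPM and rose by 3.25 ± 0.44 (adjusted p = 4.4e-06), with 3.36 and 3.03. The groups did not overlap for either RNA. PHO2 (AT2G33770), the ubiquitin conjugase whose transcript miR399 targets, had 0.04 ± 0.16 (adjusted p = 0.92), whose sign turned without high Pi B1 (-0.038) or low Pi B3 (-0.031). miR399 itself was not measured in these libraries. Because IPS1 and AT4 are among the 4 largest increases named by rule, miR399b and the matching stretches of both RNAs are shown, read from the TAIR10.1 genome with its RefSeq annotation and written 5′ to 3′, with the seed of the microRNA (bases 2 to 8) and the bases of each RNA that match the complement of miR399b in capitals.
ath-miR399b: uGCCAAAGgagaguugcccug
IPS1: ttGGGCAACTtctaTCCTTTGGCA
AT4: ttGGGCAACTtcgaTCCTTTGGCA
The IPS1 stretch lies at chr3:3051224-3051247 and the AT4 stretch at chr5:895149-895172, both on the plus strand. In each, 18 of the 21 bases of miR399b were matched with 3 unpaired bases allowed opposite its middle.

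P1BS was searched as GNATATNC, which reads the same on both strands, in the 300 bases from 250 before to 50 after each annotated gene start. It lay in 6.22% of the windows of 18570 tested genes, in 10.3% of those of 1428 risen genes, in 15.3% of those of the 177 genes risen in both experiments and in 6.14% of those of 1303 fallen genes. Of the 23 risen genes on the 4 phosphate lists (signalling, transport, lipid remodelling, phosphatases), 14 held it (60.9%), and of all 59 tested genes of these lists 24 (40.7%). In the 1000 bases before the start it lay in 20.4% of all tested genes, 22.2% of the risen genes, 49.2% of the 59 and 60.9% of the 23. SPX1, SPX3, AT4, PHT1;2, GDPD1 and PPSPASE1 were among the 14, and IPS1, PEPC1, PHT1;1 and PAP17 were not. Not all of the 14 held it before the gene start. The match lay after the start in SPX1, GDPD2, RNS1 and PAP12 and crossed it in PHT1;4. A match describes letters and is no evidence of binding. The 250 bases before the start of 4 phosphate genes that held P1BS there and had large increases are shown on the coding strand, 5′ to 3′, with P1BS in capitals.
SPX3: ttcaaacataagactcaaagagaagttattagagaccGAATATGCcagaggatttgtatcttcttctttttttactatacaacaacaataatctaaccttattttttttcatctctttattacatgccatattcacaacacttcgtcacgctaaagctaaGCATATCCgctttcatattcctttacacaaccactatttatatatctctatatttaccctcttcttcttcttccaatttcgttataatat
AT4: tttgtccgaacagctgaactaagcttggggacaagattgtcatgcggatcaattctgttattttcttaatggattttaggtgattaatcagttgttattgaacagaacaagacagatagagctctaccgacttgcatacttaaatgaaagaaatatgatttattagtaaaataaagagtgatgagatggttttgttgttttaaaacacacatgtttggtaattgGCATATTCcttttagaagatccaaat
PHT1;2: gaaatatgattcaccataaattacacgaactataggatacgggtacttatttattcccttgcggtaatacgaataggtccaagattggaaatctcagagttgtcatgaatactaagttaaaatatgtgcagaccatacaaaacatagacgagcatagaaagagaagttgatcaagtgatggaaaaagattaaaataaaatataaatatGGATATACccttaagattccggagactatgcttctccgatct
PPSPASE1: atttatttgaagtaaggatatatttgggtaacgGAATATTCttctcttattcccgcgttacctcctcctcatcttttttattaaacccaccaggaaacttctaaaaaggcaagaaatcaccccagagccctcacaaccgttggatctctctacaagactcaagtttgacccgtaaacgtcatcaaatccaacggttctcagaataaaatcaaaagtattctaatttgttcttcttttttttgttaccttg
These stretches lie at chr2:18606160-18606409 for SPX3, chr5:894332-894581 for AT4 and chr5:17415448-17415697 for PHT1;2, on the plus strand, and at chr1:27466349-27466598 for PPSPASE1, on the minus strand (TAIR10.1). SPX3 holds 2 copies of P1BS in this stretch and the others 1 each.

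Phosphate carriers rose next to their regulators. Of 14 tested transport genes 7 rose and 1 fell, with a median of 0.41. PHT1;1 (AT5G43350), an abundant uptake carrier of the root, was at 87.1, 107 and 131 CPM at high Pi against 141, 194 and 221 CPM at low Pi, and rose by 0.83 ± 0.16 (adjusted p = 4.3e-04), with 0.84 in A and 0.81 in B. PHT1;4 (AT2G38940), a further root carrier, was at 35, 47.2 and 72 CPM and 65.6, 129.9 and 163 CPM and rose by 1.37 ± 0.23 (adjusted p = 5.1e-05). The groups of PHT1;1 did not overlap, and of the low Pi libraries only B1 fell within the high Pi range of PHT1;4.

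PHT1;2 (AT5G43370), a close copy of PHT1;1 whose count is uncertain because the copies may share reads, was at 0.582, 1.05 and 5.69 CPM at high Pi against 4.39, 11.5 and 33.8 CPM at low Pi. It rose by 2.71 ± 0.33 (adjusted p = 2.7e-07), with 2.88 in A and 2.48 in B, with no overlap within either experiment. PHT1;9 (AT1G76430), another member of the family, rose by 1.52 ± 0.40 (adjusted p = 0.0069). OCT1 (AT1G73220), an organic cation and carnitine transporter, was at 6.01, 11.2 and 16.5 CPM and 11.4, 23.9 and 64.7 CPM, and rose by 1.27 ± 0.34 (adjusted p = 0.0078). Low Pi B1 and B2 lay within its high Pi range and low Pi A3 stood highest, and the call was lost without the low Pi library A3 (0.89, adjusted p = 0.086). PHO1 (AT3G23430), which loads phosphate into the xylem, and G3Pp1 (AT3G47420), a putative glycerol-3-phosphate transporter, rose by 0.33 ± 0.11 and 0.60 ± 0.18 (adjusted p = 0.029 and 0.016). The call of PHO1 was lost without any 1 of 5 libraries (high Pi A1, B2 and B3 or low Pi A1 and A3), at 0.26 to 0.32, and with only these 12 libraries fitted (adjusted p = 0.099) and with no experiment term (adjusted p = 0.11), and that of G3Pp1 without high Pi A3 (0.52, adjusted p = 0.053) or low Pi A3 (0.52, adjusted p = 0.065), and with no experiment term (adjusted p = 0.34).

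The carrier that fell was G3Pp4 (AT4G17550), of the same family as G3Pp1, at -0.70 ± 0.22 (adjusted p = 0.026). Its values were -1.68 in A and -0.08 in B, which differed (adjusted p = 6.0e-05), and its call was lost without any 1 of 4 libraries (high Pi A1 or low Pi A1, A2 and A3), at -0.65 to -0.56, and with only these 12 libraries fitted (adjusted p = 0.06) and with no experiment term (adjusted p = 0.082).

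Enzymes that take phospholipids apart rose in part. Of 16 tested genes of lipid remodelling 4 rose and none fell, with a median of 0.45. GDPD1 (AT3G02040) and GDPD2 (AT5G41080) are glycerophosphodiester phosphodiesterases, which split deacylated phospholipids. GDPD1 was at 4.87, 8.22 and 21.1 CPM at high Pi against 19.6, 44.7 and 64.5 CPM at low Pi and rose by 2.05 ± 0.30 (adjusted p = 9.4e-06). GDPD2 was at 13.4, 21 and 33.8 CPM and 32.1, 72.2 and 175 CPM and rose by 2.04 ± 0.37 (adjusted p = 1.7e-04). Within each experiment the groups of both genes were apart, and over both experiments a single low Pi library, B1 for GDPD1 and B3 for GDPD2, lay within the high Pi range. NPC4 (AT3G03530), a phospholipase C, rose by 1.21 ± 0.30 (adjusted p = 0.0042), with 1.72 in A and 0.76 in B. PLDP2 (AT3G05630), a phospholipase D, rose by 1.24 ± 0.34 (adjusted p = 0.01), with 0.71 and 1.99. The experiments ran in opposite order for these enzymes, though neither difference passed the test (adjusted p = 0.36 and 0.28). MGD3 (AT2G11810), a galactolipid synthase of phosphate-starved plants, had 0.75 ± 0.54 (adjusted p = 0.38). 

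Of 16 tested phosphatases and ribonucleases 7 rose and none fell, with a median of 0.57. PEPC1 (AT1G17710), a phosphatase of phosphoethanolamine and phosphocholine, was at 0.86, 1.2 and 3.88 CPM at high Pi against 0.585, 13.4 and 28.6 CPM at low Pi, and rose by 3.30 ± 0.56 (adjusted p = 6.6e-05). PPSPASE1 (AT1G73010), a pyrophosphatase, was at 0.913, 3.08 and 8.62 CPM and 3.51, 21.1 and 43.9 CPM and rose by 2.57 ± 0.61 (adjusted p = 0.0027). Low Pi B1 was the low Pi library that did not clear the high Pi libraries, for both genes, and without it the changes were 3.53 and 2.77.

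Purple acid phosphatases, which release phosphate from organic compounds, were among them. PAP17 (AT3G17790) was at 4.57, 14.8 and 27.2 CPM at high Pi against 14.9, 48.6 and 89.8 CPM at low Pi and rose by 1.77 ± 0.44 (adjusted p = 0.004), with 1.05 in A and 2.53 in B. Its groups were apart within each experiment, and the experiments did not differ by the test (adjusted p = 0.14). PAP12 (AT2G27190) rose by 0.66 ± 0.12 and AT1G13750, annotated as a purple acid phosphatase, by 1.18 ± 0.21 (adjusted p = 1.8e-04 and 1.3e-04). PAP14 (AT2G46880) had medians of 0.097 CPM at high Pi against 3.04 CPM at low Pi, with libraries at 0 in both groups, so its change of 3.34 ± 0.85 (adjusted p = 0.0058) rests on few counts. RNS1 (AT2G02990), a ribonuclease, rose by 1.59 ± 0.49 (adjusted p = 0.02), a call lost without any 1 of 3 libraries (high Pi A1 and A2 or low Pi B3), at 1.29 to 1.40. 

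Over the 4 lists, 59 of 73 genes passed the count filter. Of those 23 rose and 1 fell (median 0.43), beside 7.68% and 7.04% of all tested genes. Of the 23, 20 passed the test within A (87%) and 15 within B (65.2%), against 83.5% and 15.9% of all 1428 risen genes. The same direction in both experiments, which all 23 had, was held by 98.2% of all risen genes too and is largely set by the call over both. In the difference between the experiments, none of the 23 passed in edgeR (2 at an unadjusted p under 0.05 and 0 by DESeq2), against 17.2% of all risen genes. Every low Pi library lay above every high Pi library for 22 of them within A, for 15 within B and for 6 over all 12 libraries. The shares are 95.7%, 65.2% and 26.1%, beside 85.7%, 49.9% and 24.9% of all risen genes and 16.2%, 8.94% and 2.09% of all tested genes.

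**Figure D2:**
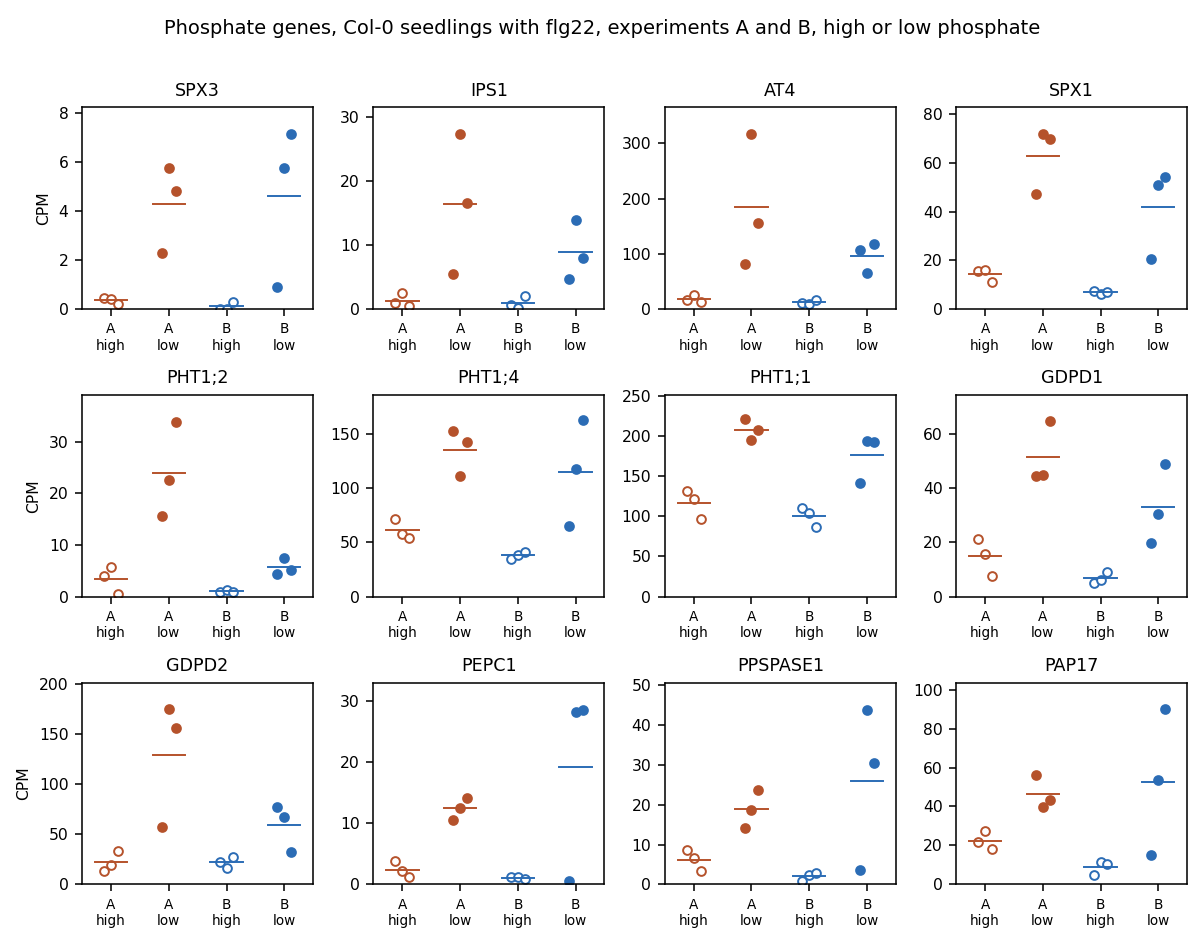
Levels in CPM (vertical axis, from 0, a scale of its own for each gene) of 12 phosphate genes in the 12 libraries, with experiment A in brown and B in blue, high Pi open, low Pi filled, and a line at the mean of 3 libraries. Low Pi libraries stand above high Pi libraries within each experiment except low Pi B1 for PEPC1.

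Col-0 without treatment, in other libraries at both phosphate levels, was the first yardstick. There 1254 genes rose at low Pi (6.75%) and 1525 fell (8.21%). Within experiment A 2723 rose untreated (14.7%) and 3257 fell (17.5%), and within B 75 rose (0.404%) and 17 fell (0.0915%). Within B fewer genes thus passed untreated than with flg22 (296 and 139). The untreated changes of single genes given next are pooled over both experiments. All 23 phosphate genes that rose with flg22 rose without it as well, and 37 of the 59 rose untreated. The untreated change was the larger one for 21 of the 23 (of all 1428 risen genes 43.8% rose untreated, and 21.6% had the larger change there), and for 46 of all 59 tested. IPS1 changed by 6.59 untreated, against 3.53 with flg22 (difference -3.06 ± 1.18, unadjusted p = 0.012, adjusted p = 0.6). AT4 changed by 5.32 untreated (difference -2.06 ± 0.63, adjusted p = 0.35), PHT1;2 by 4.65 (difference -1.94 ± 0.49, adjusted p = 0.2) and OCT1 by 3.38 (difference -2.11 ± 0.48, adjusted p = 0.15). SPX1, by contrast, changed by 2.54 untreated and 2.37 with flg22, and PAP17 by 1.26 and 1.77. No difference among these 6 genes passed the test.

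Over all genes the responses with and without flg22 differed for 1 gene (0.00538%), with 1197 at an unadjusted p under 0.05. It was PYR6 (AT5G26667), a UMP and CMP kinase, at 58.8, 63.1 and 76.3 CPM at high Pi against 42.7, 51.2 and 52.8 CPM at low Pi with flg22, with no overlap. Its log2 change was -0.38 with flg22 and 0.24 without it (difference -0.62 ± 0.12, adjusted p = 0.031). Within experiment A alone the responses differed for 317 genes (1.71%), and within B for 14. Among the 317 was GDPD2, whose change in A was smaller with flg22 by 1.85 on the log2 scale (-1.85, adjusted p = 0.047).

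Root hair genes, which build the outgrowths that enlarge the absorbing surface, made up a list with unlike counts in these responses. Of 20 tested, 16 rose untreated (median 1.07) and 1 rose with flg22 (median 0.14), beside 6.75% and 7.68% of all tested genes. The 1 of 20 is thus near the share over all genes. None of the 20 passed the test of the difference in edgeR (14 at an unadjusted p under 0.05 and 0 by DESeq2). The untreated count was not split by experiment. With flg22 10 rose within experiment A (median 0.75), none rose and 1 fell within B (median -0.50), and 9 differed between the experiments. Over all tested genes 11.6% rose within A and 1.59% within B. The gene that rose was RSL2 (AT4G33880), a transcription factor of root hair growth, at 0.813, 4.26 and 6.01 CPM at high Pi against 4.4, 8.69 and 19.7 CPM at low Pi. Its groups were apart in A and overlapped in B. It rose by 1.15 ± 0.31 (adjusted p = 0.0086), with 1.94 in A and 0.24 in B (adjusted p of the difference = 0.022), and lost the call without the low Pi library A2 (0.88, adjusted p = 0.065), and with only these 12 libraries fitted (adjusted p = 0.084).

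The libraries labelled phr1 phl1 carry mutations of PHR1 and PHL1 whose positions the labels do not give. With flg22, PHR1 was at 16.2 to 31.5 CPM at high Pi against 15.5 to 43.6 CPM at low Pi in them, below every Col-0 flg22 library. PHL1 was at 59.5 to 75.2 and 52.9 to 127 CPM, above every Col-0 flg22 library (6.59 to 17.7 CPM), so its RNA level goes against a loss of transcript, and RNA levels do not show whether the proteins are lost. In these libraries 857 genes rose at low Pi with flg22 (4.61%) and 991 fell (5.33%), with 1539 and 1982 within experiment A and 41 and 14 within B. Of the 23 phosphate genes, 14 rose there (60.9%), against 34.3% of all genes risen in Col-0. The larger change was in Col-0 for 19 of the 23 (82.6%) and for 87.3% of all genes risen in Col-0, a share that choosing genes by their rise in Col-0 favours, and for 35 of all 59 tested phosphate genes. IPS1 had 0.65 ± 0.46 in the libraries labelled phr1 phl1 (difference from Col-0 -2.88 ± 0.79, unadjusted p = 6.2e-04, adjusted p = 1). NPC4 had -0.50 ± 0.36 there (difference -1.71 ± 0.47) and OCT1 had -0.49 ± 0.43 (difference -1.76 ± 0.55), both with an adjusted p of 1 for the difference. SPX1, GDPD1 and PHT1;4 rose there, by 2.04, 1.87 and 1.57. Over all genes no difference between the genotypes passed in edgeR (0 genes, 0%, with 563 at an unadjusted p under 0.05, and 2 genes by DESeq2). The same held for flg22 against MeJA in Col-0 (0 genes, 0%, with 889 at an unadjusted p under 0.05, and 2 genes by DESeq2). With MeJA 450 genes rose at low Pi (2.42%) and 477 fell (2.57%), with 1475 and 2020 within A and 52 and 17 within B. AT4, SPX1 and PHT1;1 had 3.87, 1.54 and 1.14 with MeJA, against 3.25, 2.37 and 0.83 with flg22. These comparisons and the one with untreated Col-0 all use the same 12 libraries of Col-0 with flg22. A difference that was not detectable with 6 libraries a group is not shown to be absent.

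**Figure D3:**
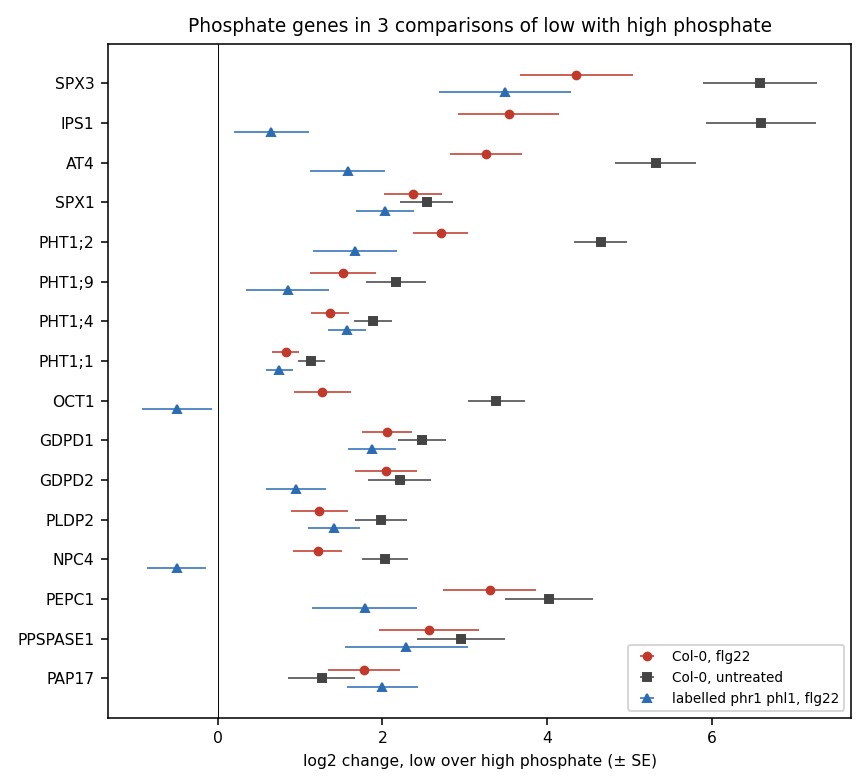
Log2 change from high to low phosphate (horizontal axis, ± SE) of 16 phosphate genes in Col-0 with flg22 (red circles), in Col-0 without treatment (dark squares) and in libraries labelled phr1 phl1 with flg22 (blue triangles), 6 libraries a group. The untreated value is the highest of the 3 for 15 of the genes and PAP17 is the exception, and the libraries labelled phr1 phl1 lie below 0 for OCT1 and NPC4.

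Among the gene lists, that of iron deficiency held the most genes that fell. Of its 26 tested genes 14 fell and none rose (median -1.20), where 7.04% of all tested genes fell. IRT1 (AT4G19690), the root's main iron transporter, was at 119.7, 243 and 306 CPM at high Pi against 36.6, 49.3 and 87.5 CPM at low Pi, a change of -2.06 ± 0.30 (adjusted p = 9.4e-06), with -2.25 in A and -1.83 in B. FRO2 (AT1G01580), the ferric reductase that works with it, was at 106, 243 and 357 CPM and 26.2, 38 and 75.5 CPM, a change of -2.37 ± 0.35 (adjusted p = 9.4e-06), with -2.55 and -2.15. Every low Pi library lay below every high Pi library for both genes, and both fell within each experiment.

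AT3G12900, annotated as a 2-oxoglutarate and Fe(II)-dependent oxygenase, had the largest decrease of the genes named by rule. It was at 18.6, 41.6 and 142 CPM at high Pi against 1.14, 2.04 and 6.15 CPM at low Pi, with no overlap, a change of -4.71 ± 0.66 (adjusted p = 7.1e-06). CYP82C4 (AT4G31940), a cytochrome P450 of the iron deficiency response, changed by -2.47 ± 0.50 and F6'H1 (AT3G13610), which makes the core of secreted coumarins, by -1.26 ± 0.27 (adjusted p = 5.0e-04 and 8.9e-04). FRU (AT2G28160), a bHLH factor also known as FIT that activates IRT1 and FRO2, changed by -0.62 ± 0.14 (adjusted p = 0.0021). NAS1 (AT5G04950), a nicotianamine synthase, MTP3 (AT3G58810), a vacuolar metal carrier, and AT1G74770, annotated as a zinc ion binding protein, changed by -1.17, -1.30 and -1.41 (adjusted p = 1.3e-04, 9.4e-06 and 2.0e-04). 

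The iron list did not move as one. Within experiment A 24 of the 26 fell (median -2.32), and within B 8 fell (median -0.41), beside 12.9% and 0.748% of all tested genes. Those 8 were IRT1, FRO2, FRU, NAS1, NAS2, AT3G12900, CYP82C4 and MTP3, and none of them was among the 12 members that differed between the experiments (7.28% of all tested genes differed). The 12 include the bHLH factors BHLH38, BHLH39, BHLH100 and BHLH101, which partner FRU, and OPT3 (AT4G16370), a phloem iron transporter. BHLH39 (AT3G56980) was at 48.7 to 118 CPM at high Pi against 1.88 to 12.8 CPM at low Pi in A, and at 6.09 to 33.3 and 18.4 to 64.8 CPM in B. OPT3 was at 620.4 to 838 and 56 to 162 CPM in A, and at 213 to 344 and 294 to 657 CPM in B. Both were far lower at low Pi in A and overlapped between the groups in B. Their changes were -3.65 and -2.99 in A against 0.68 and 0.52 in B (difference 4.33 ± 0.96 and 3.51 ± 0.52, adjusted p = 0.0019 and 3.7e-06). Over both experiments they had -1.43 and -1.16 (adjusted p = 0.085 and 0.083), passing without high Pi B1 (-1.72, adjusted p = 0.032) or low Pi B3 (-2.09, adjusted p = 0.013) for BHLH39 and without high Pi B1 (-1.37, adjusted p = 0.041) or low Pi B3 (-1.64, adjusted p = 0.012) for OPT3. BHLH38 (AT3G56970), BHLH100 (AT2G41240) and BHLH101 (AT5G04150) had -4.79, -4.91 and -3.59 in A and 1.31, 1.07 and 1.63 in B. NAS4 (AT1G56430), a further nicotianamine synthase, fell over both experiments (-1.35 ± 0.38, adjusted p = 0.011), with -3.07 in A and 0.07 in B, and lost the call with only these 12 libraries fitted (adjusted p = 0.18). Untreated, 20 of the 26 fell (median -1.10), and no member passed the test of the difference from flg22 in edgeR (6 at an unadjusted p under 0.05 and 0 by DESeq2). Of 7 tested iron storage genes, ferritins among them, none passed in edgeR (median 0.24, 1 at an unadjusted p under 0.05 and 0 by DESeq2). Within A 2 of the 7 rose, beside 11.6% of all tested genes.

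Sulfate assimilation genes fell mainly in experiment A, in which more of all tested genes fell too (12.9%, against 0.748% in B). Of 15 tested sulfur deficiency genes 6 fell and none rose (median -1.32), 13 fell and 1 rose within A (median -3.16), 1 fell within B (median -0.07), and 9 differed between the experiments. The APS reductases, which carry out the committed step of sulfate reduction, were among them. APR2 (AT1G62180) was at 163, 175 and 494 CPM at high Pi against 25.8, 66.6 and 102 CPM at low Pi, with no overlap, a change of -2.02 ± 0.44 (adjusted p = 0.0012). It fell in both experiments, with -3.21 in A and -0.87 in B, and the changes differed (2.34 ± 0.36, adjusted p = 4.8e-06). APR3 (AT4G21990) and APR1 (AT4G04610) changed by -1.89 ± 0.44 and -1.69 ± 0.47 (adjusted p = 0.0021 and 0.011), with -3.16 and -3.34 in A and -0.59 and -0.07 in B. The call of APR1 was lost without the high Pi library A1 (-1.33, adjusted p = 0.057), and with only these 12 libraries fitted (adjusted p = 0.14). AT1G04770, annotated as a TPR-like protein, and SHM7 (AT1G36370), a serine hydroxymethyltransferase, changed by -2.03 ± 0.51 and -1.32 ± 0.37 (adjusted p = 0.0046 and 0.011), the latter no longer called without the high Pi library A1 (-1.07, adjusted p = 0.051). 

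Nitrate uptake and reduction genes fell in part. Of 15 tested nitrate genes 6 fell and none rose (median -0.26), and 3 others differed between the experiments, where 7.04% of all tested genes fell and 7.28% differed. Within A 3 rose and 4 fell, beside 11.6% and 12.9% of all tested genes, and within B 4 fell, beside 0.748%. NIR1 (AT2G15620), nitrite reductase, was at 263, 294 and 531 CPM at high Pi against 116, 164 and 192 CPM at low Pi, with no overlap, a change of -1.02 ± 0.18 (adjusted p = 1.2e-04), with -1.18 in A and -0.85 in B. NIA2 (AT1G37130) and NIA1 (AT1G77760), the nitrate reductases, changed by -0.96 ± 0.17 and -0.75 ± 0.21 (adjusted p = 1.2e-04 and 0.0098), NIA2 losing the call with no experiment term (adjusted p = 0.11). The high-affinity carriers NRT2.1 (AT1G08090) and NRT2.4 (AT5G60770) changed by -0.91 ± 0.25 and -2.37 ± 0.45 (adjusted p = 0.01 and 2.2e-04). NRT2.4 was low, at 1.29, 3.23 and 7.45 CPM at high Pi against 0.293, 0.558 and 1.04 CPM at low Pi, with no overlap. NRT1.1 (AT1G12110), a dual-affinity carrier, changed by -0.58 ± 0.20 (adjusted p = 0.042), a call lost without any 1 of 8 libraries (high Pi A1, A3, B1 and B3 or low Pi A1, A2, A3 and B1), at -0.60 to -0.46, and with no count filter (adjusted p = 0.059). None of these 6 genes passed the test of a difference between the experiments in edgeR (0 at an unadjusted p under 0.05 and 0 by DESeq2).

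**Figure D4:**
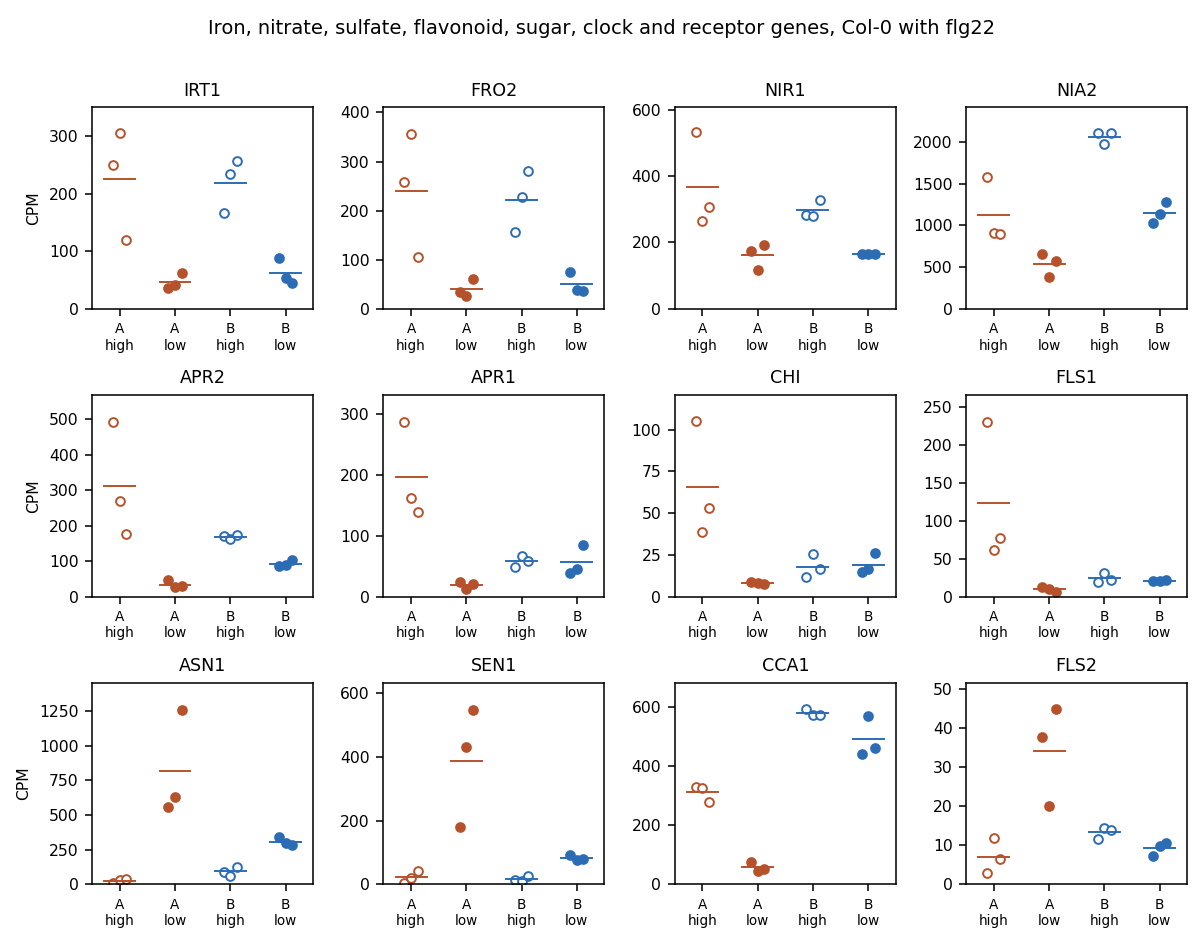
Levels in CPM (vertical axis, from 0, a scale of its own for each gene) of 12 iron, nitrate, sulfate, flavonoid, sugar, clock and receptor genes in the same 12 libraries, drawn like the phosphate genes. IRT1, FRO2, NIR1 and NIA2 were lower at low Pi in both experiments, CHI, FLS1 and APR1 were apart in A alone, and FLS2 had opposite orders in A and B.

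Flavonoid genes also fell mainly in experiment A, where 12.9% of all tested genes fell, against 0.748% in B. Of 22 tested anthocyanin and flavonoid genes 5 fell and 1 rose (median -1.15), 17 fell and 1 rose within A (median -2.91), 1 fell and 1 rose within B (median 0.16), and 17 differed between the experiments. FLS1 (AT5G08640), flavonol synthase, was at 61.6 to 230.3 CPM at high Pi against 5.43 to 12.5 CPM at low Pi in A, and at 18.6 to 31.3 and 20.8 to 21.4 CPM in B. The groups were far apart in A and overlapped in B. It changed by -1.92 ± 0.46 over both (adjusted p = 0.0033), with -3.71 in A and -0.22 in B (difference 3.49 ± 0.53, adjusted p = 6.2e-06), a call over both that was lost with only these 12 libraries fitted (adjusted p = 0.13). CHI (AT3G55120), chalcone isomerase, changed by -1.37 ± 0.43 (adjusted p = 0.023), a call lost without any 1 of 4 libraries (high Pi A1 or low Pi A1, A2 and A3), at -1.22 to -1.01, and with only these 12 libraries fitted (adjusted p = 0.17). 4CL3 (AT1G65060), a ligase that feeds the pathway, changed by -2.16 ± 0.62 (adjusted p = 0.012), a call lost without the high Pi library A1 (-1.73, adjusted p = 0.061), and with only these 12 libraries fitted (adjusted p = 0.067).

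DFR (AT5G42800), CHS (AT5G13930) and MYB75 (AT1G56650), a reductase, the entry enzyme and an activator of anthocyanin synthesis, did not pass over both experiments (-0.97, -0.88 and -0.98, adjusted p = 0.29, 0.057 and 0.37), CHS passing without any 1 of 5 libraries (high Pi A2, B1 and B3 or low Pi B1 and B3), at -1.15 to -0.98. Their values were -3.78, -1.99 and -4.62 in A and 1.08, 0.15 and 1.08 in B, and all 3 differed between the experiments (adjusted p = 0.0019, 0.0055 and 1.1e-04). MYBL2 (AT1G71030), a repressor of the pathway, was at 12.5, 22.1 and 43.5 CPM at high Pi against 39, 87.5 and 138 CPM at low Pi and rose by 1.79 ± 0.27 (adjusted p = 1.1e-05), with 1.69 in A and 1.96 in B. It rose within each experiment, with low Pi B3 the one low Pi library inside the high Pi range. MYB111 (AT5G49330), an activator of flavonol genes, changed by -1.53 ± 0.41 (adjusted p = 0.0069), with -1.26 in A and -1.68 in B.

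Few immune genes passed the test over both experiments, with flg22 present in both groups. Of 21 tested pattern receptors and signalling genes 1 rose and 1 fell (median 0.13), beside 7.68% and 7.04% of all tested genes. Within A 6 of the 21 rose and 3 fell, within B none passed in edgeR (1 at an unadjusted p under 0.05, DESeq2 not run on B alone), and 2 differed between the experiments. Over all tested genes 11.6% rose and 12.9% fell within A, and 1.59% and 0.748% within B. None of 16 output genes of pattern-triggered immunity, 26 salicylic acid genes or 19 genes of jasmonate synthesis and signalling passed in edgeR. Their medians were 0.17, 0.0025 and 0.01. At an unadjusted p under 0.05 stood 3, 4 and 1 of them, and DESeq2 called 0, 0 and 1. Within A, 1 salicylic acid gene rose and 1 fell, 3 of the jasmonate genes and 2 of the camalexin genes fell, and no output gene passed. Of 9 camalexin and related indole genes none passed in edgeR either (median -0.06, 1 at an unadjusted p under 0.05 and 1 by DESeq2). CYP71A13 (AT2G30770), an enzyme of camalexin synthesis, had -1.47 ± 0.58 (adjusted p = 0.077, passing without the high Pi library B1 (-1.71, adjusted p = 0.039)), with -4.55 in A and 0.14 in B, which differed (adjusted p = 0.0027).  FLS2 (AT5G46330), the flg22 receptor, was at 3.02 to 11.8 CPM at high Pi against 20.1 to 44.9 CPM at low Pi in A, and at 11.6 to 14.5 and 7.32 to 10.7 CPM in B. The groups did not overlap in either experiment, and their order was opposite. The change over both was 0.97 ± 0.35 (adjusted p = 0.051), with 2.18 in A and -0.53 in B (difference -2.71 ± 0.41, adjusted p = 3.3e-06). The value over both passed the test without any 1 of 5 libraries (high Pi B2 and B3 or low Pi B1, B2 and B3), at 1.08 to 1.14. RBOHD (AT5G47910), the oxidase of the immune oxidative burst, was at 54.2, 97.2 and 154 CPM at high Pi against 33, 51.7 and 71.2 CPM at low Pi, a change of -0.85 ± 0.22 (adjusted p = 0.0053), with -1.37 in A and -0.35 in B, which differed (adjusted p = 0.035). PUB24 (AT3G11840), a ubiquitin ligase that dampens pattern-triggered immunity, rose by 0.65 ± 0.22 (adjusted p = 0.04), a call lost without any 1 of 8 libraries (high Pi A1, A2, A3 and B3 or low Pi A1, A2, A3 and B3), at 0.53 to 0.67, and with no count filter (adjusted p = 0.053) and with only these 12 libraries fitted (adjusted p = 0.062) and with no experiment term (adjusted p = 0.079).

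PR3 (AT3G12500), a basic chitinase, and PR4 (AT3G04720), a hevein-like protein, known as outputs of jasmonate and ethylene signalling, were the 2 of 13 jasmonate defence genes that rose (median 1.13), beside 7.68% of all tested genes. They were also the only 2 at an unadjusted p under 0.05 in edgeR. The list median was 0.53 within A and 1.13 within B, and 7 of the 13 had the same direction in both. PR3 was at 10.8, 18.3 and 25.4 CPM at high Pi against 30.9, 47.3 and 53.9 CPM at low Pi, with no overlap, and rose by 1.28 ± 0.25 (adjusted p = 3.9e-04), with 1.26 in A and 1.27 in B. PR4 rose by 1.17 ± 0.35 (adjusted p = 0.016), a call lost without the low Pi library B3 (0.90, adjusted p = 0.068), and with only these 12 libraries fitted (adjusted p = 0.078). Of 15 chaperones of the endoplasmic reticulum, where secreted proteins fold, 3 fell (median -0.17), beside 7.04% of all tested genes. BIP1 (AT5G28540) and BIP2 (AT5G42020), near-identical copies whose separate counts are uncertain, changed by -0.54 ± 0.15 and -0.50 ± 0.14 and CNX1 (AT5G61790) by -0.46 ± 0.14 (adjusted p = 0.0089, 0.013 and 0.018). BIP2 lost the call without the low Pi library A2 (-0.41, adjusted p = 0.063), and with only these 12 libraries fitted (adjusted p = 0.052), and CNX1 without low Pi A2 (-0.35, adjusted p = 0.09) or low Pi A3 (-0.41, adjusted p = 0.059), and with only these 12 libraries fitted (adjusted p = 0.065) and with no experiment term (adjusted p = 0.058).

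Glucosinolates are sulfur-containing defence compounds. Of 25 tested genes of their methionine-derived branch 10 fell and none rose (median -0.54), and 8 differed between the experiments. Within experiment A 16 fell (median -1.06), where 12.9% of all tested genes fell. None passed within B (median -0.08, 2 at an unadjusted p under 0.05), where only 0.748% of all tested genes fell, so that count is near the share over all genes. FMO GS-OX3 (AT1G62560) and FMO GS-OX1 (AT1G65860), which oxidise side chains, changed by -1.33 ± 0.40 and -1.20 ± 0.37 (adjusted p = 0.017 and 0.022). The former lost the call without low Pi A2 (-1.18, adjusted p = 0.052) or low Pi A3 (-1.18, adjusted p = 0.057), and the latter without any 1 of 5 libraries (high Pi A1 and A3 or low Pi A1, A2 and A3), at -1.13 to -1.01, and with only these 12 libraries fitted (adjusted p = 0.083). MYB29 (AT5G07690), a regulator of this branch, changed by -0.76 ± 0.25 (adjusted p = 0.029), a call lost without any 1 of 3 libraries (high Pi A1 and A3 or low Pi A3), at -0.73 to -0.66. Of 13 tested genes of the tryptophan-derived branch 2 rose and 2 fell, beside 7.68% and 7.04% of all tested genes. IGMT1 (AT1G21100), a methyltransferase with near-identical neighbours and therefore an uncertain count, rose by 1.77 ± 0.44 (adjusted p = 0.0044), and SUR1 (AT2G20610), a lyase of the core pathway, changed by -0.61 ± 0.15 (adjusted p = 0.004). SUR1 was at 81.1, 99.8 and 133 CPM at high Pi against 50.6, 66.4 and 81 CPM at low Pi, with no overlap. PEN3 (AT1G59870), a transporter of defence compounds, rose by 0.62 ± 0.20 (adjusted p = 0.024), a call lost without any 1 of 3 libraries (high Pi A1 or low Pi A1 and A3), at 0.51 to 0.52, and with only these 12 libraries fitted (adjusted p = 0.055) and with no experiment term (adjusted p = 0.086).

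Genes known from darkness, low sugar and senescence were among the largest increases. SEN1 (AT4G35770), a senescence gene that the annotation also describes as induced by phosphate starvation, was at 5.17, 17.4 and 41.3 CPM at high Pi against 77.9, 136 and 548 CPM at low Pi and rose by 3.26 ± 0.59 (adjusted p = 1.5e-04), with 4.02 in A and 2.29 in B. ASN1 (AT3G47340), the asparagine synthetase of darkened tissue, was at 7.76, 50.8 and 127 CPM and 281, 450 and 1259 CPM and rose by 3.07 ± 0.66 (adjusted p = 0.001). The groups of neither gene overlapped. ASN1 rose in each experiment, with 4.83 in A and 1.73 in B, and the changes differed (-3.10 ± 0.63, adjusted p = 6.0e-04). DIN10 (AT5G20250), of the raffinose synthase family, rose by 2.28 ± 0.50 (adjusted p = 0.0014). AT2G33830, annotated as dormancy- and auxin-associated, AT2G15960, annotated as a stress-induced protein, and Fes1B (AT3G53800), a relative of Hsp70-binding proteins, rose by 2.52 ± 0.60, 2.61 ± 0.54 and 2.68 ± 0.45 (adjusted p = 0.0028, 6.5e-04 and 6.3e-05). Their values were 3.56, 3.55 and 3.45 in A and 1.44, 1.46 and 1.28 in B, and all 3 differed between the experiments (adjusted p = 0.009, 0.019 and 0.0035). The other increases named by rule were those of AT1G15330, annotated as a protein with a cystathionine beta-synthase domain (2.64 ± 0.51), AT3G43850, annotated as uncharacterized (2.40 ± 0.48), and DOG1 (AT5G45830), known as a regulator of seed dormancy (2.29 ± 0.39; adjusted p = 2.5e-04, 4.6e-04 and 6.2e-05). Of 16 tested senescence genes 6 rose and 1 fell (median 0.37), beside 7.68% and 7.04% of all tested genes. Within A 5 rose and 2 fell, beside 11.6% and 12.9%, and within B 4 rose, beside 1.59%. NAP (AT1G69490), a NAC factor of leaf senescence, was at 1.22, 7.22 and 9.17 CPM at high Pi against 11.3, 18 and 23.9 CPM at low Pi, with no overlap, and rose by 1.38 ± 0.30 (adjusted p = 0.0011). DIN2 (AT3G60140), a glucosidase and the member that fell, changed by -2.26 ± 0.81 (adjusted p = 0.048), a call lost without any 1 of 7 libraries (high Pi A3 and B3 or low Pi A1, A2, A3, B1 and B2), at -2.27 to -1.36, and by DESeq2 (adjusted p = 0.12) and with no count filter (adjusted p = 0.068) and with a replicate block (adjusted p = 0.077).

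Some antenna genes of the photosystems were among the increases. Of 33 tested photosynthesis genes 15 rose and 1 fell, beside 7.68% and 7.04% of all tested genes. Their median was 0.39, with 0.45 within A and 0.22 within B. LHCB4.2 (AT3G08940), a minor antenna protein, was at 1317, 1551 and 2075 CPM at high Pi against 2186, 2861 and 3120 CPM at low Pi, with no overlap, and rose by 0.80 ± 0.13 (adjusted p = 2.5e-05). LHCB1.5 (AT2G34420) and LHCB1.4 (AT2G34430), copies of the main antenna protein whose separate counts are uncertain, rose by 0.87 ± 0.14 and 1.15 ± 0.25 (adjusted p = 3.9e-05 and 0.0012). LHCB3 (AT5G54270) rose by 0.87 ± 0.16 (adjusted p = 1.2e-04). The member that fell was RBCS1B (AT5G38430), a Rubisco small subunit with close copies, at -1.30 ± 0.21 (adjusted p = 3.5e-05). Of 7 chlorophyll synthesis genes 2 rose and 1 fell (median 0.20), beside 7.68% and 7.04% of all tested genes. PORA (AT5G54190) and PORB (AT4G27440), which make chlorophyllide in the light, rose by 2.10 ± 0.44 and 1.05 ± 0.26 over both experiments (adjusted p = 6.5e-04 and 0.0042), with 3.19 and 1.73 in A and -0.06 and 0.26 in B, and both differed between the experiments (adjusted p = 0.013 and 2.2e-05).

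Of 19 cell division genes 7 fell over both experiments and none rose, with a median of -0.32. Within A 8 fell (median -0.48) and within B 0 (median -0.24), beside 12.9% and 0.748% of all tested genes. KNOLLE (AT1G08560), a syntaxin of the dividing cell plate, was at 38.4, 44.8 and 50.1 CPM at high Pi against 27.3, 32.8 and 38.2 CPM at low Pi, with no overlap, a change of -0.47 ± 0.11 (adjusted p = 0.0021). CYCB1;1 (AT4G37490), a mitotic cyclin, and AUR1 (AT4G32830), a mitotic kinase, changed by -0.64 ± 0.17 and -0.56 ± 0.14 (adjusted p = 0.0078 and 0.0034). Within B alone KNOLLE, CYCB1;1 and AUR1 had -0.33, -0.61 and -0.53 and did not pass (adjusted p = 0.24, 0.15 and 0.16). Further decreases named by rule were those of ELIP2 (AT4G14690), a light stress protein (-2.40 ± 0.50, adjusted p = 6.9e-04), FTM1 (AT1G43800), a stearoyl-ACP desaturase (-2.20 ± 0.41, adjusted p = 2.0e-04), and ARR15 (AT1G74890), a negative regulator of cytokinin responses (-2.13 ± 0.42, adjusted p = 3.2e-04). The copper transporter COPT2 (AT3G46900), the glucosidase BGLU47 (AT4G21760) and AT5G38820, annotated as an amino acid transporter, changed by -2.07 ± 0.44, -2.31 ± 0.58 and -3.24 ± 0.61 (adjusted p = 7.2e-04, 0.0042 and 2.2e-04). AT5G04730, annotated as an ankyrin-repeat protein, and AT5G17040, annotated as a UDP-glycosyltransferase, changed by -2.26 ± 0.56 and -2.17 ± 0.61 (adjusted p = 0.0041 and 0.011), the latter no longer called without the high Pi library A1 (-1.73, adjusted p = 0.058). FTM1 was at 17.6, 27 and 60 CPM at high Pi against 3.12, 7.62 and 8.52 CPM at low Pi, with no overlap. Within B alone ELIP2, ARR15, COPT2, BGLU47 and AT5G17040 had -1.31, -1.66, -1.30, -1.15 and -0.86. None of these passed there (adjusted p = 0.38, 0.074, 0.19, 0.28 and 0.60).

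**Figure D5:**
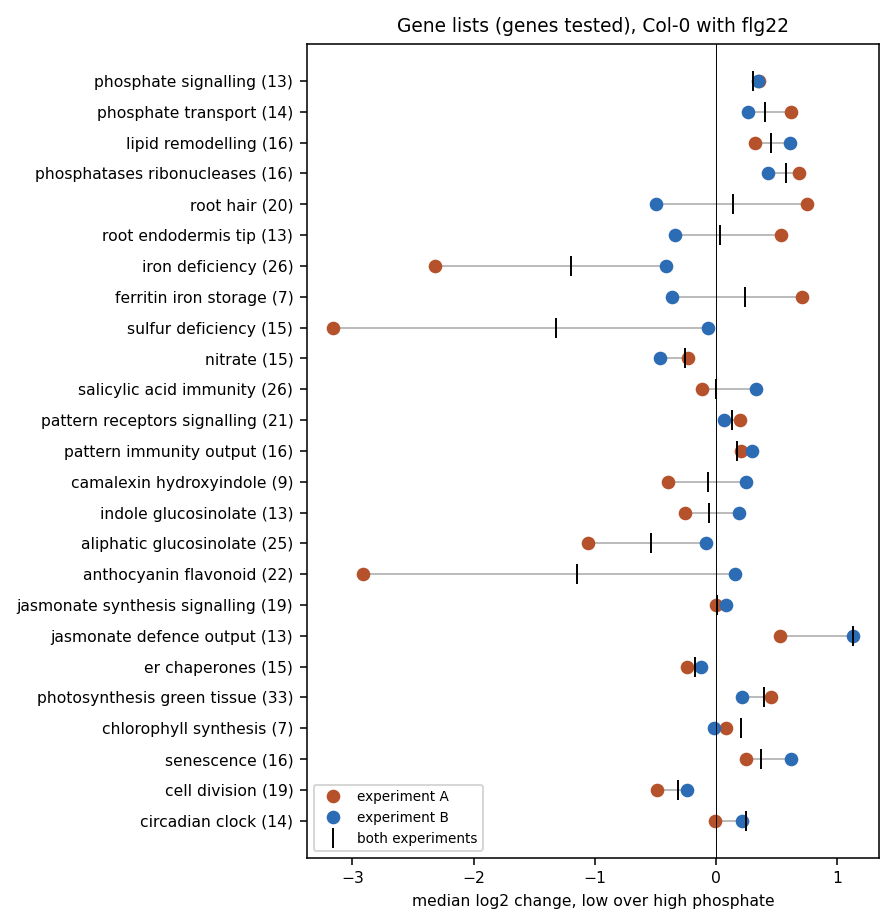
Median log2 change from high to low phosphate with flg22 (horizontal axis) of each gene list, with the number of genes tested in parentheses, in experiment A (brown), experiment B (blue) and both (black bar). The sulfur, flavonoid and iron lists had the lowest medians in A (-3.16, -2.91 and -2.32) and lay closer to 0 in B, while the phosphate lists lay above 0 in both.

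Circadian clock genes also differed between the experiments, in a list added after the largest changes had been seen. Of 14 tested 2 rose and 2 fell over both experiments (median 0.24), beside 7.68% and 7.04% of all tested genes. Between the experiments 7 of the 14 differed, beside 7.28%. Within A 3 rose and 5 fell, beside 11.6% and 12.9%. Within B 4 rose and none fell, beside 1.59% and 0.748%. The same direction in both experiments was held by 6 of the 14, beside 61.7% of all tested genes. CCA1 (AT2G46830), a morning factor of the clock, was at 279 to 331 CPM at high Pi against 46.6 to 75.8 CPM at low Pi in A, and at 572 to 593 and 442 to 570.2 CPM in B. LHY (AT1G01060), its partner, was at 443 to 478 and 67.9 to 90.5 CPM in A and 839.9 to 945 and 741 to 794 CPM in B. Both were lower at low Pi with no overlap in either experiment, by far more in A. Neither passed the edgeR test within B (adjusted p = 0.39 and 0.50). The changes were -2.42 and -2.53 in A and -0.24 and -0.21 in B (difference 2.18 ± 0.19 and 2.32 ± 0.19, adjusted p = 3.1e-13 and 8.4e-14). PRR7 (AT5G02810), a daytime repressor of the clock, rose within each experiment, with 1.16 in A and 1.84 in B. With no experiment term the calls of CCA1, LHY and PRR7 over both experiments were lost (adjusted p = 0.55, 0.53 and 0.10). The labels used here give no hour of harvest, and the part of the clock in the results that differed between the experiments was not tested.

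The genes with the largest differences between the experiments by rule were scarce in some groups. AT4G33720, annotated in the superfamily of pathogenesis-related protein 1, was at 11.6 to 52.6 CPM at high Pi against 0.835 to 2.55 CPM at low Pi in A, and at 0.287 to 1.18 and 6.44 to 68.4 CPM in B. AT3G27250, annotated as uncharacterized, was at 0.407 to 14.7 and 0 to 0.359 CPM in A and 0.609 to 2.87 and 5.56 to 29.1 CPM in B. Both were lower at low Pi in A and higher in B, with no overlap in either experiment. AT4G33720 had -4.29 in A and 5.80 in B (difference 10.08 ± 1.84, adjusted p = 1.5e-04), and AT3G27250 had -4.48 and 3.13 (difference 7.61 ± 1.18, adjusted p = 6.5e-06). The sign of AT3G27250 over both experiments turned without low Pi B3 (-0.44). UGT79B1 (AT5G54060), which decorates anthocyanins, had -5.58 in A and 1.03 in B, AT1G12030, annotated as a DUF506 protein, -5.34 and 1.60, and AT1G47400, an uncharacterized protein on the iron list, -4.97 and 1.27 (adjusted p of the differences = 6.5e-04, 0.0049 and 9.4e-05). In the other direction, IAA29 (AT4G32280), a repressor of auxin responses, had 3.40 in A and -1.04 in B, AT4G33730, of the same superfamily as AT4G33720, 1.82 and -1.42, and AT3G20460, annotated as a transporter of the major facilitator superfamily, 1.41 and -1.65 (adjusted p = 4.3e-05, 0.011 and 5.5e-04). PORA and ASN1, described above, completed the rule.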

How the data were processed

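RNA-seq counts per gene were measured in 72 libraries of poly(A) RNA from whole Arabidopsis seedlings, prepared without strand information per the labels' protocols, so reads of overlapping and antisense genes cannot be told apart. The authors deposited 1 table of raw counts for 27206 loci, made per the submitters' processing notes with HTSeq 0.6.1p1 and TopHat2 2.1.1 among the tools, besides cutadapt 1.3, CASAVA 1.8 and the TAIR10 build, with no settings for multi-mapped reads in the sources used here. All columns matched a sample by its label (0 unmatched) and 0 rows named no gene.

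Loci passing edgeR's filterByExpr (minimum count 10) numbered 18583. They were fitted with TMM scaling and edgeR 4.0.16 (R 4.3.3, limma 3.58.1) in 1 robust quasi-likelihood model of all 72 libraries, with 12 groups and experiment as terms, so the groups share 1 estimate of the spread (common biological coefficient of variation 0.18). Values within experiments, and the difference B minus A, came from a model with a term for each group and experiment. Adjusted p-values are Benjamini-Hochberg values over all tested genes, with a threshold of 0.05, and the fits were tested on simulated counts. CPM values use TMM library sizes. The principal components used log2 CPM with a prior count of 2. Alternatives were DESeq2 1.42.0, RLE scaling, no filter, fewer libraries, no experiment term, a replicate block and each of the 12 libraries left out in turn.

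The gene lists were chosen with earlier results of these data known, and the clock list was added after the largest changes had been seen. Named by rule were the 15 largest increases and 15 largest decreases (mean log2 CPM at least 1, same sign in A and B), up to 5 per direction and interaction, up to 6 called genes per list, PHR1, PHL1 and FLS2. Of those per list, the ones described are the members the text turns on. SPX2, SPX4, PHO2, PHO1, PAP12, G3Pp1, UNE16, MGD3, CYP71A13, BIP2, CNX1, FMO GS-OX1, LHCB3, FRU, NAS1, MTP3, F6'H1, OPT3, the iron bHLH genes, DFR, CHS, MYB75, PYR6 and the clock genes were in part chosen after their values were seen. Sequences were read from the TAIR10.1 genome, whose coordinates are those printed. Precision is limited by 2494827 to 5475710 counts per library and 6 libraries a group.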

Additional observations from a re-analysis of the deposited data

Results flagged for a closer look

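In 31 of 242 pairs of a described gene and a group of 6, 1 library stood apart from the other 5, with a gap to its neighbour above 0.625 of the group's range. That cutoff marks about 1 in 20 groups of 6 drawn from a single normal population. The groups here join experiments A and B, whose levels often differed, so that rate need not hold and no excess over it is claimed. Low Pi A2 was highest for AT4 (317 CPM, next 156). Low Pi B1 was highest for AT3G12900 (6.15 CPM, next 2.23) and lowest for PHT1;1 (141 CPM, next 193). Low Pi A3 was highest for OCT1 (64.7 CPM, next 29.8), ASN1 (1259 CPM, next 627) and AT3G20460 (8.77 CPM, next 2.27). Low Pi B3 was highest for DIN2 (4.12 CPM, next 1.25), AT1G47400 (84.1 CPM, next 24.2), PUB24 (10.2 CPM, next 6.82), BHLH39 (64.8 CPM, next 24.2), BHLH100 (114 CPM, next 37.7), AT3G27250 (29.1 CPM, next 6.32) and AT1G12030 (25.6 CPM, next 5.02). High Pi A2 was highest for AT1G74770 (166 CPM, next 77.9), BHLH101 (86 CPM, next 33.8) and F6'H1 (216 CPM, next 91). High Pi A1 was highest for APR2 (494 CPM, next 269.5), NIR1 (531 CPM, next 328), FLS1 (230.3 CPM, next 77.2), 4CL3 (122 CPM, next 48.1), ELIP2 (178 CPM, next 69.5), PYR6 (76.3 CPM, next 64.5), CHS (1036 CPM, next 394), AT3G27250 (14.7 CPM, next 2.87) and AT5G17040 (12.1 CPM, next 4.46). Low Pi A1 was highest for IGMT1 (59.3 CPM, next 20.2) and lowest for FTM1 (3.12 CPM, next 7.25). High Pi B1 was highest for LHCB1.4 (4410 CPM, next 2604) and SPX4 (24.4 CPM, next 20.4). Low Pi B2 was highest for BGLU47 (1.86 CPM, next 0.835). High Pi B3 was highest for IAA29 (3.15 CPM, next 1.42).

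For 41 described genes the change from high to low Pi with flg22 differed between the experiments by the test of the difference, given here as the log2 change in B minus that in A. It was higher in B for 30 of them. The largest such differences were those of AT4G33720 (10.08), AT3G27250 (7.61), AT1G12030 (6.94), UGT79B1 (6.61), AT1G47400 (6.25), BHLH38 (6.11), BHLH100 (5.98), MYB75 (5.71), BHLH101 (5.22) and DFR (4.86). Next came CYP71A13 (4.69), BHLH39 (4.33), OPT3 (3.51), FLS1 (3.49), 4CL3 (3.40), APR1 (3.28), NAS4 (3.14), CHI (3.04), AT1G04770 (2.98) and APR3 (2.57). The smallest were those of APR2 (2.34), LHY (2.32), FMO GS-OX1 (2.32), CCA1 (2.18), CHS (2.14), FMO GS-OX3 (1.86), G3Pp4 (1.59), SHM7 (1.47), RBOHD (1.02) and RBCS1B (0.98). It was lower in B for 11 genes, which were IAA29 (-4.44), PORA (-3.25), AT4G33730 (-3.24), ASN1 (-3.10), AT3G20460 (-3.06), FLS2 (-2.71), Fes1B (-2.17), AT2G33830 (-2.12), AT2G15960 (-2.09), RSL2 (-1.70) and PORB (-1.47). PYR6 was the gene whose change differed between flg22 and no treatment (-0.62).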

How the results depend on the processing

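The counts of genes that rose and fell stayed within 1.5 times the main counts under DESeq2, RLE scaling, no filter, no experiment term and without the untreated high Pi library B1 labelled phr1 phl1. With only the 12 libraries 982 rose and 729 fell, against 1428 and 1308. Experiment A alone gave 2159 and 2398, B alone 296 and 139, and a fold of at least 2, added after the data were seen, 255 and 156. With each library left out in turn, 921 to 1503 rose, 857 to 1618 fell and 855 to 1385 differed between the experiments (1353 in all). The lowest counts came without low Pi A3 (921 rose, 855 differed), low Pi A2 (945 rose, 857 fell) and high Pi A1 (869 fell). For flg22 against no treatment (1 gene), DESeq2 gave 3 genes, no filter 0, the fit without the untreated library B1 labelled phr1 phl1 2, A alone 317 and B alone 14. For labelled phr1 phl1 against Col-0 (0 genes), DESeq2 gave 2 and A alone 3, and for flg22 against MeJA (0 genes) DESeq2 gave 2. The replicate numbers pair libraries by number only: same-numbered low and high Pi libraries had deviations correlated at 0.0127 to 0.321, and each correlated best with its own number except B3. With a replicate block 1380 rose, 1231 fell, 1300 differed between the experiments and 1, 0 and 0 in the interactions, and of the genes described DIN2 alone lost its call (-2.10, adjusted p = 0.077). Of 121 genes described 97 were called, 75 of them with every library left out in turn. Calls were lost by 14 of the 102 described genes that could be tested with only the 12 libraries, by 10 of 121 with no experiment term and by 3 with no filter. The other described genes did not pass the count filter with only the 12 libraries. SPX3, PHT1;9, PAP14 and NRT2.4 were among these, so their calls were not checked in that way. Among 117 described genes compared, DESeq2 called 4 that the main fit did not and lost the call of 1. With no experiment term 2 described genes were called that the main fit did not call. Signs turned in experiment B alone for NAS4 (0.070), AT1G47400 (1.27), CHI (0.050), FLS2 (-0.53), CYP71A13 (0.14), PORA (-0.060), BHLH39 (0.68), BHLH38 (1.31), BHLH100 (1.07), BHLH101 (1.63), OPT3 (0.52), DFR (1.08), MYB75 (1.08), CHS (0.15), IAA29 (-1.04), UGT79B1 (1.03), AT1G12030 (1.60), AT4G33730 (-1.42), AT3G20460 (-1.65) and SPX4 (-0.056). They turned in A alone for PHL1 (0.17), PHO2 (-0.11), AT4G33720 (-4.29) and AT3G27250 (-4.48). With 1 library left out PHO2 ran from -0.038 (high Pi B1) to 0.12, with -0.031 without low Pi B3, AT4G33730 from -0.029 (low Pi A2) to 0.67, and AT3G27250 had -0.44 without low Pi B3. AT3G20460, near 0 over both experiments, turned under DESeq2 (-0.014), with the replicate block (-0.043) and without high Pi A1, A2 or A3 or low Pi A3, where it ran from -0.91 to 0.24 over the libraries left out. Without 1 library, AT1G47400 (-2.08), BHLH38 (-2.25) and UGT79B1 (-2.15) passed the test over both experiments (low Pi B3), as did AT3G27250 (1.90, high Pi A1) and IAA29 (1.82 to 2.27, 4 libraries). The cause of these changes was not tested.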
